A study of Bos taurus with 12 samples.

Results

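The transforming growth factor beta (TGF-beta) ligands, their receptors, the latency proteins and the activin and follistatin genes were examined in bovine endometrium. The members were all probe sets that the platform annotation names for LTBP1, LTBP2, TGFB1, TGFB2, TGFB3, TGFBR1, TGFBR2, INHBA, INHBB or FST. These were 11 of 24016 probe sets tested and covered 9 of 9155 named genes. INHBB had 0 in the annotation used here. LTBP2 had 2 probe sets, with identifiers ending in S1_at and S2_at, and TGFBR2 had 2, which are told apart here by their mean log2 signals over all pools of 9.42 and 3.33.

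Endometrial RNA of Simmental heifers was hybridized in pools, 1 pool per array, on 12 Affymetrix bovine arrays. There were 4 groups of 3 pools: receptive and non-receptive tissue of day 7 of the estrous cycle, and receptive and non-receptive tissue of day 3. Receptivity had been assigned from the pregnancy outcome after embryos produced in vivo were transferred, so it describes the animals and not a treatment. The number of heifers behind a pool is not stated, nor is it stated that replicate pools came from different heifers, so p-values reflect only the spread between pools, which may be technical.

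TGF-beta is secreted in a latent form, in which its own propeptide stays wrapped around the growth factor. Latent TGF-beta binding proteins (LTBPs) tether this complex to fibrillin microfibrils of the extracellular matrix, from which integrins and proteases release the active ligand. The ligand then joins the type II receptor TGFBR2 with the type I receptor TGFBR1, which phosphorylates SMAD proteins. Activins, dimers of the inhibin beta chains, signal through related receptors, and follistatin (FST) binds and neutralizes them. In the endometrium this family is known for its part in tissue remodelling, stromal differentiation and embryo attachment.

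Values are log2 signals as deposited, so that a difference of 1 is a doubling, and a transcript was called different with an adjusted p under 0.05 (limma, Benjamini-Hochberg over all probe sets). None of the members was at the floor value of 0 in any pool. Their means over the 12 pools ran between 3.33 and 9.42. The table carries no detection calls, so whether the lowest signals lie above background is not known. Array medians lay between 6.64 and 6.76, and pools of a group correlated at r between 0.952 and 0.971. Simple epithelial markers averaged between 10.07 and 10.46 in every pool, with 0 of 13 at the floor. Between the days, averaged over receptivity, 0 of 13 were called, where 14.2% of all probe sets were. At an unadjusted limma p under 0.05 there were 3 of 13, where 30.8% of all probe sets passed.

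Between the days, the abundance of LTBP1 was much lower on day 7, and 1 of the 2 LTBP2 probe sets was slightly higher. Of the 11 member probe sets, 2 passed the test for day 7 against day 3 averaged over receptivity, against 14.2% of all probe sets. The 1 higher and the 1 lower member stand against 4.76% called higher and 9.44% called lower over the array. The median change of the members was -0.06, against -0.05 for all probe sets. FST had a mean change of 2.37 but did not pass, and its day 7 pools were far apart (SD 1.98). At an unadjusted p under 0.05 there were 5 of 11 members, where 30.8% of all probe sets passed.

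**Figure D1:**
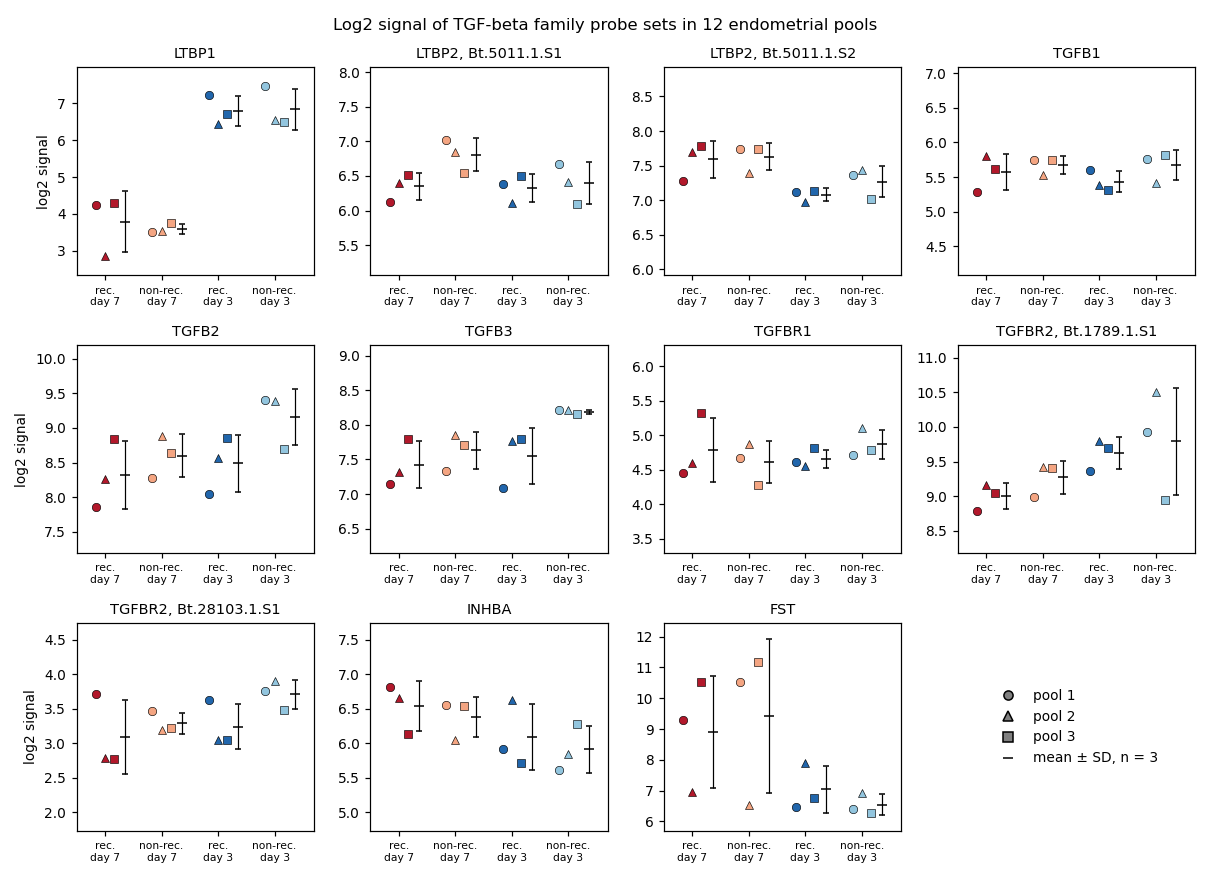
Log2 signal of each member probe set (vertical axis) in the 12 pools, by group (horizontal axis), with each pool as a point and the mean ± SD of 3 pools beside it; the vertical scale differs between panels. LTBP1 lay between 2.84 and 4.29 in the day 7 pools, below all day 3 pools, and FST was split among the day 7 pools.

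LTBP1 encodes the protein that covalently binds the latent TGF-beta complex and deposits it in the matrix. Its log2 signal was 4.24, 2.84 and 4.29 in receptive day 7 pools and 3.50, 3.52 and 3.75 in non-receptive day 7 pools. It was 7.23, 6.45 and 6.71 in receptive day 3 pools and 7.48, 6.54 and 6.49 in non-receptive day 3 pools. All 6 day 7 pools lay below all 6 day 3 pools, as was the case, in this direction, for 5.16% of all probe sets. LTBP1 averaged 3.69 ± 0.54 on day 7 and 6.82 ± 0.43 on day 3 (SD, n = 6 each). The log2 change was -3.13 (SE 0.29), or 8.73-fold lower on day 7, with an adjusted p of 0.000848 in limma. The size of this fold rests on low day 7 signals, and whether they lie above background is not known.

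The LTBP1 decrease was seen in both receptivity groups. In receptive endometrium the log2 change was -3.01 (SE 0.40, limma adjusted p = 0.0163), where 1.96% of all probe sets were called and 1.37% called lower. In non-receptive endometrium it was -3.25 (SE 0.40, limma adjusted p = 0.00919), where 2.48% were called and 1.66% called lower. LTBP1 was the 1 member of 11 called in each of these contrasts. In receptive endometrium 2 members, and in non-receptive endometrium 3, had an unadjusted p under 0.05, where 20.4% and 20.5% of all probe sets had. Day 7 and day 3 pools did not overlap for 3 of 11 members in receptive endometrium, against 25.2% of all probe sets, and for 3 of 11 in non-receptive endometrium, against 25.9%. The difference between both day changes was 0.24 (SE 0.57), with a 95% confidence interval of -1.04 to 1.52. The receptive call did not hold without pool 1 of receptive day 3 (log2 change -2.79, adjusted p = 0.0726) or without pool 3 of that group (-3.05, adjusted p = 0.0624), and the non-receptive call did not hold without pool 1 of non-receptive day 3 (-2.925, adjusted p = 0.0544). Averaged over receptivity, LTBP1 was called in 20 of 20 alternative fits, with changes between -3.299 and -2.889.

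Some markers of stromal and endothelial cells were called lower on day 7, and leukocyte markers were mixed. Of 15 measured stromal fibroblast markers, 6 were called lower and 0 higher, where 9.44% of all probe sets were called lower, with a median change of -1.33, and 0 were at the floor. Over the alternative fits, 2 to 8 were called lower. This list was not uniform either, since PDGFRA (0.04), IGFBP5 (0.18) and VIM (-0.18) hardly changed and were not called. The mean log2 signal of the 15 markers was 7.03 to 7.67 in receptive day 7 pools and 7.26 to 8.07 in non-receptive day 7 pools. It was 8.51 to 8.61 in receptive day 3 pools and 7.67 to 9.40 in non-receptive day 3 pools. All day 3 pools except pool 3 of the non-receptive group, at 7.67, lay above every day 7 pool. Of 11 endothelial markers, 3 were called lower and 0 higher, namely EMCN (change -1.70), TEK (-1.40) and CDH5 (-0.79), with a median change of -0.41. The list was mixed, since CLDN5 (0.42), TIE1 (0.38), VWF (0.32) and PLVAP (0.10) had changes above 0 without a call. The mean of the 11 markers was 4.83 to 5.35 in day 7 pools and 5.07 to 5.88 in day 3 pools. Of 12 leukocyte markers, 2 were called lower, PTPRC (-0.72) and MS4A1 (-0.60), and 1 higher, CD68 (2.17), with a median change of -0.27. CD14 had a change of 0.93 without a call. The mean of the 12 markers was 6.32 to 7.01 in day 7 pools and 6.44 to 6.90 in day 3 pools, so the days overlapped. In whole tissue, fewer cells of a type and less RNA per cell cannot be told apart. The part of these cell types in the LTBP1 change was not tested.

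**Figure D2:**
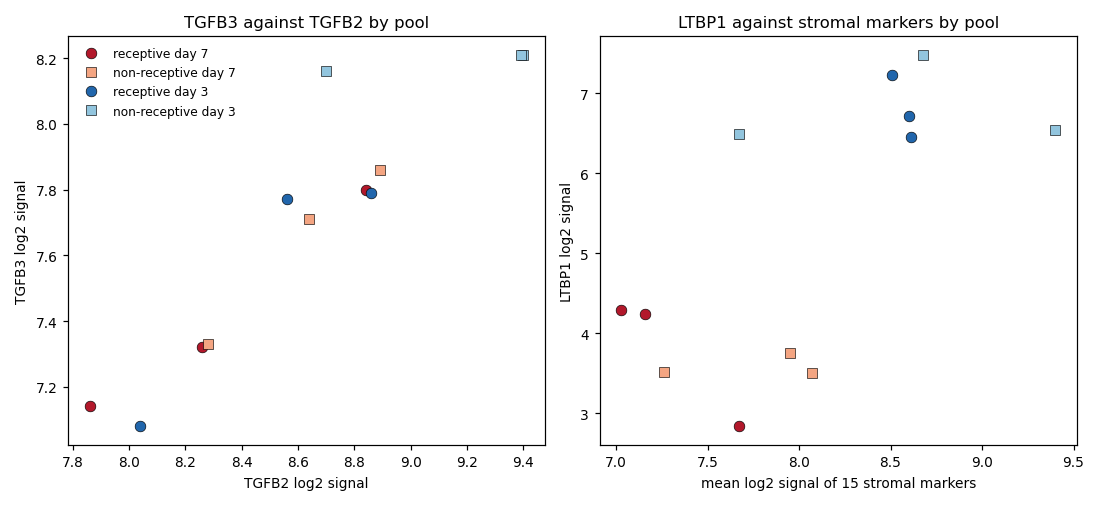
Left, TGFB3 against TGFB2 log2 signal, and right, LTBP1 log2 signal against the mean log2 signal of 15 stromal markers, with each of the 12 pools as a point coloured by group. TGFB2 and TGFB3 ran together over the pools (r = 0.93), and 5 of 6 day 3 pools had both higher LTBP1 signals and higher stromal marker means than every day 7 pool. On the right, all points share the difference between the days. Pool 3 of non-receptive day 3 had an LTBP1 signal of 6.49 at a stromal marker mean of 7.67, and pool 2 of that group 6.54 at 9.40.

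The named genes whose pattern over the 12 pools was most like that of LTBP1 were MACROH2A2, which encodes a macroH2A histone variant (r = 0.989), NUP155, a nuclear pore protein (r = 0.962), and CDK2, a cyclin-dependent kinase (r = 0.962). All points share the difference between the days. Within the 6 pools of a day, r for MACROH2A2 was 0.82 on day 7 and 0.89 on day 3, while r for CDK2 was -0.23 on day 7 and 0.80 on day 3. MACROH2A2 had log2 signals of 6.0 to 6.66 in day 7 pools and 7.85 to 8.37 in day 3 pools.

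LTBP2 encodes a microfibril protein of the same family, which differs from the others in that it does not bind latent TGF-beta. The S2_at probe set had log2 signals of 7.28, 7.70 and 7.79 in receptive day 7 pools and 7.74, 7.40 and 7.74 in non-receptive day 7 pools. The signals were 7.12, 6.98 and 7.14 in receptive day 3 pools and 7.37, 7.43 and 7.02 in non-receptive day 3 pools. The days overlapped only between pool 1 of receptive day 7 and both upper non-receptive day 3 pools, and between pool 2 of non-receptive day 7 and pool 2 of non-receptive day 3. The mean was 7.61 ± 0.21 on day 7 and 7.18 ± 0.18 on day 3 (SD, n = 6 each), a log2 change of 0.43 (SE 0.12, limma adjusted p = 0.0402) or 1.35-fold. This call was lost in 12 of 20 alternative fits. It was lost without any 1 pool other than pool 2 of non-receptive day 7 and pool 1 of receptive day 7, with adjusted p between 0.0227 and 0.0906 and changes between 0.368 and 0.509 over the 12 pools left out.

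The S1_at probe set of LTBP2 moved less between the days, with 6.58 ± 0.32 on day 7 and 6.36 ± 0.23 on day 3 (SD, n = 6 each). Its change was 0.21 (SE 0.13, limma adjusted p = 0.316). Both LTBP2 probe sets correlated at r = 0.60 over the 12 pools. The genes nearest in pattern to the called LTBP2 probe set were NR0B1, a nuclear receptor (r = 0.948), HCLS1, an actin-binding protein of blood cells (r = 0.920), and PDLIM2, a PDZ and LIM domain protein (r = 0.919).

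**Figure D3:**
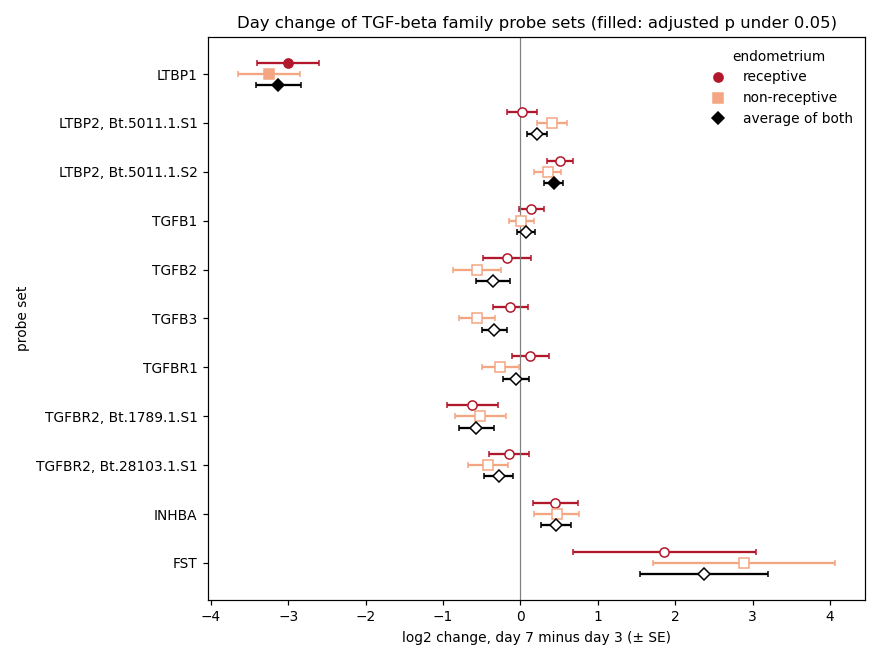
Log2 change of each member probe set, day 7 minus day 3 (horizontal axis, ± SE), for receptive and non-receptive endometrium and for their average, with filled symbols for an adjusted p under 0.05. LTBP1 changed by -3.01 in receptive and -3.25 in non-receptive endometrium, and FST had the widest error.

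Of the ligands, none of the 3 TGF-beta genes passed the test between the days. TGFB1, the isoform of platelets and immune cells and of many tissues, had nearly level signals, with 5.62 ± 0.19 on day 7 and 5.55 ± 0.21 on day 3 (SD, n = 6 each). Its change was 0.07 (95% confidence interval -0.18 to 0.33, limma adjusted p = 0.714).

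TGFB2 and TGFB3, the isoforms best known from development, were in the main most abundant in non-receptive day 3 pools. TGFB2 had log2 signals of 7.86, 8.26 and 8.84 in receptive day 7 pools, 8.28, 8.89 and 8.64 in non-receptive day 7 pools, 8.04, 8.56 and 8.86 in receptive day 3 pools and 9.40, 9.39 and 8.70 in non-receptive day 3 pools. TGFB3 had 7.14, 7.32 and 7.80 in receptive day 7 pools, 7.33, 7.86 and 7.71 in non-receptive day 7 pools, 7.08, 7.77 and 7.79 in receptive day 3 pools and 8.21, 8.21 and 8.16 in non-receptive day 3 pools. The non-receptive day 3 pools thus had the highest TGFB3 signals of all, whereas 1 of the 3 TGFB2 signals of that group lay within the range of the others. The share of all probe sets with such a pattern over the 4 groups was not counted. Averaged over receptivity, the day change was -0.36 (SE 0.22, limma adjusted p = 0.299) for TGFB2 and -0.34 (SE 0.16, limma adjusted p = 0.19) for TGFB3. In non-receptive endometrium alone it was -0.56 (SE 0.31, limma adjusted p = 0.344) for TGFB2 and -0.56 (SE 0.23, limma adjusted p = 0.211) for TGFB3.

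The TGFB2 and TGFB3 signals ran together over the pools, with r = 0.93 over 12 pools, 0.98 over the 6 day 7 pools and 0.88 over the 6 day 3 pools. SEPTIN8, a septin of the cytoskeleton, and SYT3, a synaptotagmin, were among the 3 genes nearest in pattern to both. TGFB2 and INHBA ran in opposite directions on day 7 (r = -0.92, n = 6) and less so on day 3 (r = -0.46, n = 6). Each pair of signals comes from the same RNA pool and array, and these values were selected among all pairs of members, so they are given as a description.

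The receptors did not pass the test between the days. TGFBR1, the type I receptor kinase, had 4.70 ± 0.36 on day 7 and 4.76 ± 0.20 on day 3 (SD, n = 6 each), with a change of -0.06 (SE 0.17, limma adjusted p = 0.839) that took the other sign when arrays were centred on their medians. TGFBR2, the type II receptor that binds the ligand first, had log2 signals with the 9.42 probe set of 8.79, 9.16 and 9.05 in receptive day 7 pools, 8.99, 9.42 and 9.40 in non-receptive day 7 pools, 9.36, 9.80 and 9.70 in receptive day 3 pools and 9.92, 10.50 and 8.95 in non-receptive day 3 pools. Of the 6 day 3 pools, 4 were above all day 7 pools, while pool 3 of non-receptive day 3 was below all but 1 of them. That pool also had the lowest stromal marker mean of the day 3 pools. The change was -0.57 (SE 0.23, limma adjusted p = 0.131), and it was called in 2 of 20 alternative fits. With each of the 12 pools left out in turn the change lay between -0.392, without pool 2 of non-receptive day 3 (adjusted p = 0.223), and -0.78, without pool 3 of that group (adjusted p = 0.0147), and only the last of these fits called it. The 3.33 probe set of TGFBR2 changed by -0.28 (SE 0.19, limma adjusted p = 0.336), with signals of 2.77 to 3.71 on day 7 and 3.04 to 3.90 on day 3. Both TGFBR2 probe sets correlated at only r = 0.30 over the 12 pools.

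On the activin side, INHBA, which encodes the inhibin beta A chain of activin A, had log2 signals of 6.82, 6.66 and 6.13 in receptive day 7 pools, 6.56, 6.04 and 6.54 in non-receptive day 7 pools, 5.91, 6.63 and 5.72 in receptive day 3 pools and 5.61, 5.84 and 6.28 in non-receptive day 3 pools. The day ranges overlapped. The change was 0.46 (SE 0.20, limma adjusted p = 0.156).

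FST, the extracellular antagonist of activins, had log2 signals of 9.28, 6.94 and 10.51 in receptive day 7 pools and 10.54, 6.55 and 11.18 in non-receptive day 7 pools. It had 6.48, 7.91 and 6.77 in receptive day 3 pools and 6.40, 6.92 and 6.29 in non-receptive day 3 pools. On day 7, 4 of 6 pools were above every day 3 pool, and pool 2 of both receptivity groups lay within the day 3 range. The mean was 9.17 ± 1.98 on day 7 and 6.80 ± 0.59 on day 3 (SD, n = 6 each). The change was 2.37 (SE 0.83, 95% confidence interval 0.51 to 4.23), with an unadjusted p of 0.0177 and an adjusted p of 0.0868 in limma. With each of the 12 pools left out in turn it lay between 1.932 and 3.09, with adjusted p between 0.0127 and 0.174. It passed without pool 2 of non-receptive day 7 (3.09, adjusted p = 0.0127) and without pool 2 of receptive day 7 (2.864, adjusted p = 0.0488), the pools with the low signals. It did not without any of the others, such as pool 3 of non-receptive day 7 (1.932, adjusted p = 0.167). FST was called in 3 of 20 alternative fits.

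Most listed markers of squamous epithelium and of neutrophils were called higher on day 7, 5 of 6 and 5 of 8, where 4.76% of all probe sets were. SFN of the squamous list (change 0.30) was not called. LTF (-0.01), FCGR3A (0.01) and CAMP (0.11, at the floor in 2 pools) of the neutrophil list were not called either. The split of FST over the day 7 pools was set beside them. The squamous marker mean was 8.65 in pool 2 of receptive day 7 and 8.64 in pool 2 of non-receptive day 7, where FST was low, and 7.47 to 8.79 in the other 4 day 7 pools. The neutrophil marker mean was 8.37 in pool 2 of receptive day 7 and 6.73 in pool 2 of non-receptive day 7. In the other 4 day 7 pools it was 7.76 to 8.66. Both FST-low pools had high squamous markers, as had pools 1 and 3 of non-receptive day 7 (8.62 and 8.79), where FST was high. Of the 2 FST-low pools, 1, pool 2 of non-receptive day 7, had the lowest neutrophil marker mean of day 7. In that pool 1 of the 8 neutrophil genes was at the floor, which lowers the mean. The part of these cell types in the FST split was not tested.

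Receptive and non-receptive endometrium did not differ in any member at the threshold. On day 7, 0 of 11 were called (smallest limma adjusted p 0.821), against 0% of all probe sets. On day 3, 0 of 11 were called (smallest limma adjusted p 0.936), against 0.0125%. Averaged over the days, 0 of 11 were called, against 0.00416%. At an unadjusted p under 0.05 there was 1 member in each of these contrasts, where 5.81% of all probe sets passed on day 7, 5.26% on day 3 and 7.38% on average. The changes of the members, receptive minus non-receptive, ran between -0.51 and 0.20 on day 7 and between -0.68 and 0.52 on day 3.

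The members at an unadjusted p under 0.05 were an LTBP2 probe set on day 7 and TGFB3 on day 3 and on average. The LTBP2 S1_at probe set had log2 signals of 6.13, 6.40 and 6.52 in receptive day 7 pools and 7.02, 6.85 and 6.55 in non-receptive day 7 pools, without overlap, as had 9.23% of all probe sets. The difference was -0.46 (SE 0.19). TGFB3 on day 3 differed by -0.65 (SE 0.23, 95% confidence interval -1.17 to -0.13), again without overlap, as had 10.8% of all probe sets. TGFB2 on day 3 differed by -0.68 (SE 0.31, 95% confidence interval -1.37 to 0.02). Over 21 alternative fits the day 3 difference lay between -0.768 and -0.12 for TGFB3 and between -0.908 and -0.068 for TGFB2. With 1 pool left out it stayed between -0.768 and -0.413 for TGFB3 and between -0.908 and -0.453 for TGFB2. The smallest differences, -0.12 and -0.068, thus came from another processing setting and not from leaving out a pool. The TGFB3 difference averaged over the days lay between -0.525 and -0.041 over 20 alternative fits. None of these fits called them.

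On each day the receptivity groups lay apart in a control for RNA length. The actin control gap, the log2 signal of the 3' minus that of the 5' probe set, was 3.11, 1.05 and 1.80 in receptive day 3 pools and 0.49, 0.48 and 0.93 in non-receptive day 3 pools, without overlap. Pool 1 of receptive day 3 had both the widest gap and the lowest TGFB2 and TGFB3 signals among day 3 pools. On day 7 the gap was 1.25, 0.96 and 0.82 in receptive pools and 0.45, 0.02 and 0.63 in non-receptive pools, again without overlap. Since the gap separates the receptivity groups on day 3 and on day 7, it cannot be told apart from receptivity on either day. The same non-receptive day 3 pools enter both the receptivity difference of day 3 and the non-receptive day change given above.

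Whether the day changes differed between receptive and non-receptive endometrium was tested as an interaction. Of the 11 members, 0 were called, against 0% of all probe sets, and 0 had an unadjusted p under 0.05 (smallest 0.178), where 3.39% of all probe sets had. The interaction was -1.03 for FST, with a 95% confidence interval of -4.75 to 2.69, so that differences of several log2 units in either direction were not detectable with these pools. For TGFB1 the interval was narrower, -0.39 to 0.64.

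Other genes of the pathway were described as lists by their counts of calls between the days, each gene by its most abundant probe set. These counts stand against 9.44% of all probe sets called lower and 4.76% called higher, and against a median change of -0.05 for all probe sets. After arrays were centred on their medians, 1562 probe sets were called lower and 1601 higher, against 2268 lower and 1144 higher as deposited. Of 9 measured receptors and coreceptors, 2 were called lower on day 7 and 0 higher, with a median change of -0.17. They were ACVR1, a type I receptor of bone morphogenetic proteins (BMPs) and activins (8.96 ± 0.10 on day 7 and 9.25 ± 0.06 on day 3, change -0.30, limma adjusted p = 0.0215), and ACVR2B, a type II activin receptor (6.45 ± 0.21 on day 7 and 6.99 ± 0.19 on day 3, change -0.54, limma adjusted p = 0.023; SD, n = 6 each). Neither had overlapping days, as was the case, in this direction, for 5.16% of all probe sets. The calls were kept in 16 and 19 of 20 alternative fits, and centring arrays on their medians was among the fits that lost the ACVR1 call. Of 9 SMADs and regulators, 1 was called higher, USP15, a deubiquitinase that acts on this pathway (change 0.24, SE 0.07, limma adjusted p = 0.0382), and this call was kept in 8 of 20 alternative fits.

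Of 18 genes of the latent complex, the microfibrils and latency release, 1 was called higher and 2 lower, near the shares of 4.76% and 9.44% over all probe sets, with a median change of -0.38. Over the alternative fits, 0 to 1 were called higher and 1 to 6 lower. FBN1, the fibrillin to which LTBP1 attaches, averaged 8.88 ± 0.40 on day 7 and 10.06 ± 0.60 on day 3 (SD, n = 6 each), a change of -1.17 (limma adjusted p = 0.0254, kept in 14 of 20 alternative fits). NRROS, which tethers latent TGF-beta on myeloid cells, averaged 6.21 ± 0.16 on day 7 and 6.73 ± 0.13 on day 3, a change of -0.52 (limma adjusted p = 0.00746). MMP9, a gelatinase that can release latent TGF-beta and that is also on the neutrophil list, averaged 5.86 ± 1.32 on day 7 and was at the floor in 3 of 6 day 3 pools (limma adjusted p = 0.00426), so no fold is given. FBN1 shares its lower day 7 abundance with the stromal markers described above.

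Of 10 activin, inhibin, BMP and growth differentiation factor genes and antagonists, 2 were called lower and 0 higher, with a median change of -0.06. Over the alternative fits, 0 to 2 were called lower and 0 to 1 higher. BMP7, a BMP ligand, averaged 6.36 ± 0.54 on day 7 and 7.50 ± 0.22 on day 3 (SD, n = 6 each), a change of -1.14 (limma adjusted p = 0.0122, kept in 19 of 20 alternative fits and lost with the actin control gap as a covariate, adjusted p = 0.0543). MSTN, myostatin, which follistatin also binds, averaged 8.37 ± 1.13 on day 7 and 10.03 ± 0.33 on day 3, a change of -1.66 (limma adjusted p = 0.0288, kept in 12 of 20 alternative fits).

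Of 26 TGF-beta response genes, 4 were called lower, where 9.44% of all probe sets were, and 0 higher, with a median change of -0.36. Over the alternative fits, 1 to 7 were called lower and 0 to 1 higher. ID3 averaged 9.17 ± 0.18 on day 7 and 9.77 ± 0.13 on day 3 (SD, n = 6 each), a change of -0.60 (limma adjusted p = 0.00641) that was kept in 20 of 20 alternative fits. ID1 changed by -0.47 (limma adjusted p = 0.0229, kept in 16 of 20). Both encode inhibitors of DNA binding that are best known as targets of BMPs. COL3A1, a fibrillar collagen that is also on the stromal list, changed by -1.73 (limma adjusted p = 0.0297, kept in 12 of 20), and KLF10, an early TGF-beta response factor, by -0.52 (limma adjusted p = 0.047, kept in 10 of 20 alternative fits). In the receptivity contrasts and the interaction, 0 genes of these lists were called.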

How the data were processed

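Endometrial RNA pools were measured on Affymetrix bovine arrays. TRI Reagent was used for RNA isolation, followed by DNaseI treatment and RNeasy cleanup. The authors deposited log2 signals for 24128 probe sets in each of 12 pools. Affymetrix Expression Console, PLIER and GCOS 1.1.1 are listed in the submitters' processing notes without role or order. How arrays were scaled to each other is not stated there. Here the values were used as deposited, without further normalization or a filter. After 112 control probe sets were left out, 4 group means were estimated by lmFit and eBayes of limma 3.58.1 in R 4.3.3, with 7 contrasts, two-sided tests and Benjamini-Hochberg adjustment over 24016 probe sets. The script was tested on simulated data. Genes were named from the platform annotation, where 13292 probe sets had 1 symbol, 86 several and 10638 none. Every member was named, with up to 4 called genes of each pathway list having the smallest p, and the 3 genes nearest in pattern by Pearson's r. The members, lists and tests were chosen with earlier results of these data known. Alternatives were other normalizations, filters, spread estimates and array weights, a replicate block, the actin gap as covariate, fewer groups and each pool left out in turn. The number of arrays limits the precision.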

Additional observations from a re-analysis of the deposited data

How the results depend on the processing

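For day 7 against day 3 averaged over receptivity, 2 members were called as deposited, 1 with the replicate block, 6 with array weights (3 higher and 3 lower) and 1 to 3 with 1 pool left out. Array weights called LTBP1 and the LTBP2 S2_at probe set and also TGFB3, INHBA, the TGFBR2 probe set with a mean of 9.42 and FST (adjusted p = 0.047, 0.033, 0.0471 and 0.0228 in that order). TGFB3 was also called with the actin gap as a covariate (change -0.585, adjusted p = 0.0384). In receptive endometrium, 0 members were called with the actin gap as a covariate or with only the groups of the contrast, and 0 to 1 with 1 pool left out, since LTBP1 then had adjusted p = 0.0648 and 0.0767 in the first pair of fits. In non-receptive endometrium, 3 were called with array weights and 0 to 1 with 1 pool left out. The TGFBR1 day change was 0.001 with arrays centred on their medians, against -0.06 as deposited, and lay between -0.195 and 0.02 with 1 pool left out. In the receptivity contrasts and the interaction, 0 members were called under every alternative run. The cause of these shifts was not tested.

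Over all probe sets, 3412 were called as deposited (1144 higher and 2268 lower), 3244 after quantile normalization (1430 higher and 1814 lower), 3163 after centring on the median (1601 higher and 1562 lower), 5611 with array weights and 1861 to 3617 with 1 pool left out, with the fewest without pool 1 of non-receptive day 3. In receptive endometrium, 471 were called as deposited, 37 to 1275 under other settings and 9 to 615 with 1 pool left out. In non-receptive endometrium, 596 were called as deposited, 37 to 3141 under other settings and 4 to 534 with 1 pool left out.

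Whether pool numbers pair the pools is not stated. Deviations of pools with the same number correlated at r between -0.257 and 0.211 over 18 pairs of pools. The best match in another group had the same number in 14 of 36 cases. Most of these pairs join receptive with non-receptive pools, which were different animals, so these values cannot exclude pairing. Between the days of receptive tissue, r was 0.211, 0.069 and 0.178 for the same number and -0.237 to 0.07 for different numbers. In non-receptive tissue it was -0.047 to 0.034 and -0.112 to 0.11. The replicate block gave 3029 called probe sets for the averaged day contrast, and the LTBP2 S2_at call was lost with it (change 0.432, adjusted p = 0.0727).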

Other observations

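The split of FST over the day 7 pools was shared by other genes, which were looked up after the FST values had been seen. NCDN, which encodes neurochondrin, was nearest in pattern to FST over the 12 pools (r = 0.932, with 0.96 over the 6 day 7 pools and 0.41 over the 6 day 3 pools). PSPH, the phosphatase of serine synthesis, followed (r = 0.928, with 0.96 on day 7 and 0.64 on day 3). PSPH had log2 signals of 6.64, 5.77 and 7.19 in receptive day 7 pools and 7.03, 5.20 and 8.21 in non-receptive day 7 pools, with pool 2 the lowest in both groups. In day 3 pools PSPH lay between 5.03 and 6.37.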
